A study of Mus musculus with 4 samples.

Results

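The genes of cholesterol synthesis and its control were followed across the cell classes of the mouse cortex and hippocampus, with and without deletion of Sel1L in neurons. They are 28 genes chosen by symbol, and all 28 were found among the 32286 features that were counted. By role, 7 act in the mevalonate and isoprenoid steps (Acat2, Hmgcs1, Mvk, Pmvk, Mvd, Idi1 and Fdps), and 11 carry squalene to cholesterol (Fdft1, Sqle, Lss, Cyp51, Tm7sf2, Msmo1, Nsdhl, Hsd17b7, Ebp, Sc5d and Dhcr7). A further 5 belong to SREBP control (Srebf1, Srebf2, Scap, Insig1 and Insig2), and 5 to sterol transport, export, esterification and turnover (Stard4, Abca1, Abcg1, Cyp46a1 and Soat1). Nuclear RNA was counted in single nuclei of 4 mice aged 5 weeks, 1 library per mouse. The 2 control libraries are labelled Sel1L flox/flox, here Sel1L fl/fl, and the 2 others Sel1L Syn-Cre, here Sel1L SynCre, in which Cre under the Synapsin I promoter removes the floxed Sel1L in neurons. As the study describes them, both groups carry the floxed allele and differ by Cre, which the Cre counts given below do not bear out for 1 control library. The study describes the deletion as reaching a subset of neurons, nearly complete in CA3 and the dentate gyrus, with CA1 neurons largely keeping the protein. Glia are not a target of this Cre. SEL1L is the partner of the ubiquitin ligase HRD1 in the degradation of misfolded proteins of the endoplasmic reticulum (ER).

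Cholesterol hardly crosses the blood-brain barrier, and the brain makes its own from acetyl-CoA. Astrocytes and myelin-forming oligodendrocytes are regarded as its main producers after birth. The transcription factors SREBP1 and SREBP2 (Srebf1, Srebf2) are held in the ER membrane by the INSIG proteins (Insig1, Insig2) while sterol is plentiful. When sterol falls, SCAP (Scap) escorts them to the Golgi, where proteases release the active factor, which raises the genes of synthesis and also Insig1. Excess cholesterol leaves cells through the ABC transporters ABCA1 and ABCG1, is stored as esters by SOAT1, or leaves the brain as 24-hydroxycholesterol made by the neuronal enzyme CYP46A1.

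After removal of low-quality nuclei and doublets, 33323 nuclei were kept, 11116 and 7864 from the Sel1L fl/fl and 7538 and 6805 from the Sel1L SynCre libraries. Median depth ranged from 7244.5 to 8397 UMIs (unique molecular identifiers, counted RNA molecules) per nucleus. A pair of libraries shared 9 to 28 barcodes, at most 0.411% of the smaller library. Sel1l RNA itself was not lower in the libraries labelled Sel1L SynCre. Over all nuclei the libraries labelled Sel1L fl/fl had 97.1 and 90.0 UMIs of Sel1l per 1000000 UMIs (CPM), and those labelled Sel1L SynCre had 155.1 and 128.3 CPM. Within classes edgeR called it higher in Sst-like, Pvalb-like, DG-like, Lamp5-like and OPC-like nuclei and not in the other 14. Counts of 3′ ends do not check the deletion where they fall outside the deleted part. Cre UMIs were found in both Sel1L SynCre libraries (236 and 221, or 3.52 and 3.34 CPM) and in Sel1L fl/fl replicate 1 (409, or 4.05 CPM), and there were 0 in Sel1L fl/fl replicate 2. Since Cre UMIs go against the label of Sel1L fl/fl replicate 1, each genotype difference called below is also given without it. Nuclei were sorted into classes by marker genes, with the 28 genes kept out of the features used for clustering. Of 22 named classes, 19 had at least 20 nuclei in every library and were tested, 14 of them neuron-like and 5 not. Oligodendrocyte-like nuclei numbered 1848 and 1174 in the Sel1L fl/fl and 357 and 365 in the Sel1L SynCre libraries.

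Among the 19 tested classes, most of the synthesis genes had their highest level in astrocyte-like nuclei. A level is given here as CPM of a class in a library, and 4 values in a row belong to the 4 libraries, first Sel1L fl/fl replicate 1 and replicate 2, then Sel1L SynCre replicate 1 and replicate 2. By the mean of the 4 libraries, 22 of the 28 genes were highest in astrocyte-like nuclei, among them 16 of the 18 synthesis enzymes. For 8 of these 22 genes all 4 astrocyte-like values lay above all 4 of the next class, and for 14 they overlapped. Levels are a description of classes and were not tested. CPM is a share of the UMIs of a class, and depth differed between classes. The median was 3141 UMIs per nucleus in astrocyte-like, 2925 in oligodendrocyte-like, 7385 in DG (dentate gyrus)-like and 16990 in layer 5 extratelencephalic (L5 ET)-like nuclei. A higher level therefore does not mean more UMIs per nucleus, which were not compared. Immature oligodendrocyte-like nuclei, too few to be among the 19 classes, had enzyme sums of 1041 and 987 CPM in the Sel1L fl/fl libraries. These lie above the astrocyte-like sums of the same libraries, but not above that of Sel1L SynCre replicate 1. The UMIs of the 18 enzymes summed to 975, 963, 1115 and 807 CPM in astrocyte-like nuclei and to 610, 623, 642 and 476 CPM in oligodendrocyte-like nuclei. The astrocyte-like mean was 1.64 times the oligodendrocyte-like mean and 3.93 times that of the median neuron-like class. In microglia or perivascular macrophage-like nuclei the sum averaged 176 CPM, which lies at the low end of the neuron-like range.

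**Figure D1:**
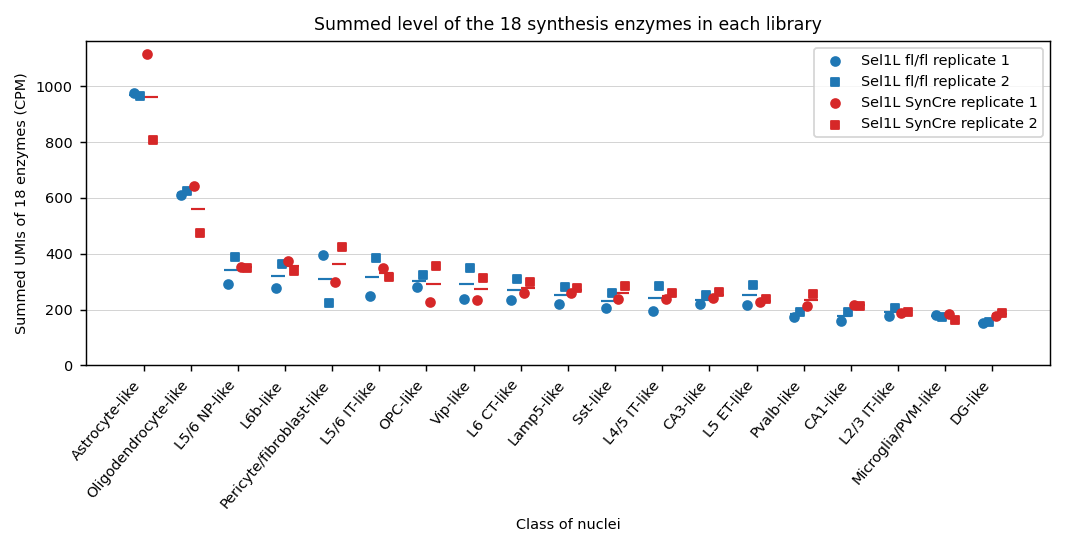
Summed level of the 18 synthesis enzymes (CPM, vertical axis) in each of 19 classes (horizontal axis), with 1 point per library coloured by label. The astrocyte-like points (807 to 1115 CPM) lie above all others and the oligodendrocyte-like points (476 to 642 CPM) come next, while the neuron-like classes average 169 to 346 CPM.

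Msmo1, the methylsterol oxidase that removes methyl groups from lanosterol products, showed the widest step between the classes among the enzymes. Its level was 225, 219, 294 and 191 CPM in astrocyte-like nuclei, 90.6, 107, 103 and 79.6 CPM in oligodendrocyte-like nuclei, and 10.4 to 31.3 CPM on average in the neuron-like classes. The astrocyte-like mean was 11.9 times that of the median neuron-like class. Hmgcs1, which makes the HMG-CoA that enters the mevalonate pathway, stood at 96.5, 107, 117 and 101 CPM in astrocyte-like and at 80.4, 72.6, 73.1 and 40.8 CPM in oligodendrocyte-like nuclei. For Msmo1 and Hmgcs1 these 2 classes did not overlap. For Fdft1, the squalene synthase, they did, with 111, 91.0, 120 and 67.3 CPM against 61.0, 68.0, 83.9 and 66.0 CPM, and the same was true of Idi1, Fdps and Cyp51.

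Among the enzymes, astrocyte-like nuclei and neurons were closest for Ebp, Acat2, Sc5d and Lss. For Lss, the lanosterol synthase, the astrocyte-like mean was 1.96 times that of the median neuron-like class, and for Sc5d, a sterol desaturase, 1.91 times. Ebp, the sterol isomerase, was an exception to the order of classes, with 3.40, 12, 6.03 and 8.41 CPM in astrocyte-like nuclei against a mean of 15.4 CPM in oligodendrocyte-like and 16.0 CPM in microglia-like nuclei. The other exception, Acat2, which joins acetyl-CoA units, averaged 31.9 CPM in pericyte or vascular fibroblast-like and 30.1 CPM in astrocyte-like nuclei. The pericyte-like values rest on 6, 2, 9 and 9 UMIs, and the values of both classes overlapped.

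Within the neuron-like classes the summed enzymes ranged 2.05-fold, from 169 CPM in dentate gyrus (DG)-like nuclei to 346 CPM in layer 5/6 near-projecting (L5/6 NP)-like nuclei. DG-like nuclei had the lowest mean of the 14 classes for 10 of the 28 genes and L5/6 NP-like nuclei the highest for 10. Without Sel1L fl/fl replicate 2 the first count was 6. Hmgcs1 illustrates the range, with 7.33, 10.0, 9.0 and 9.18 CPM in DG-like and 32.7, 46.9, 36.4 and 39.5 CPM in L5/6 intratelencephalic (L5/6 IT)-like nuclei, where its neuronal mean was highest. The values of both classes did not overlap. Libraries differed too: in all 14 neuron-like classes the sum was lower in Sel1L fl/fl replicate 1 than in Sel1L fl/fl replicate 2, for example 196 against 284 CPM in layer 4/5 intratelencephalic (L4/5 IT)-like nuclei.

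**Figure D2:**
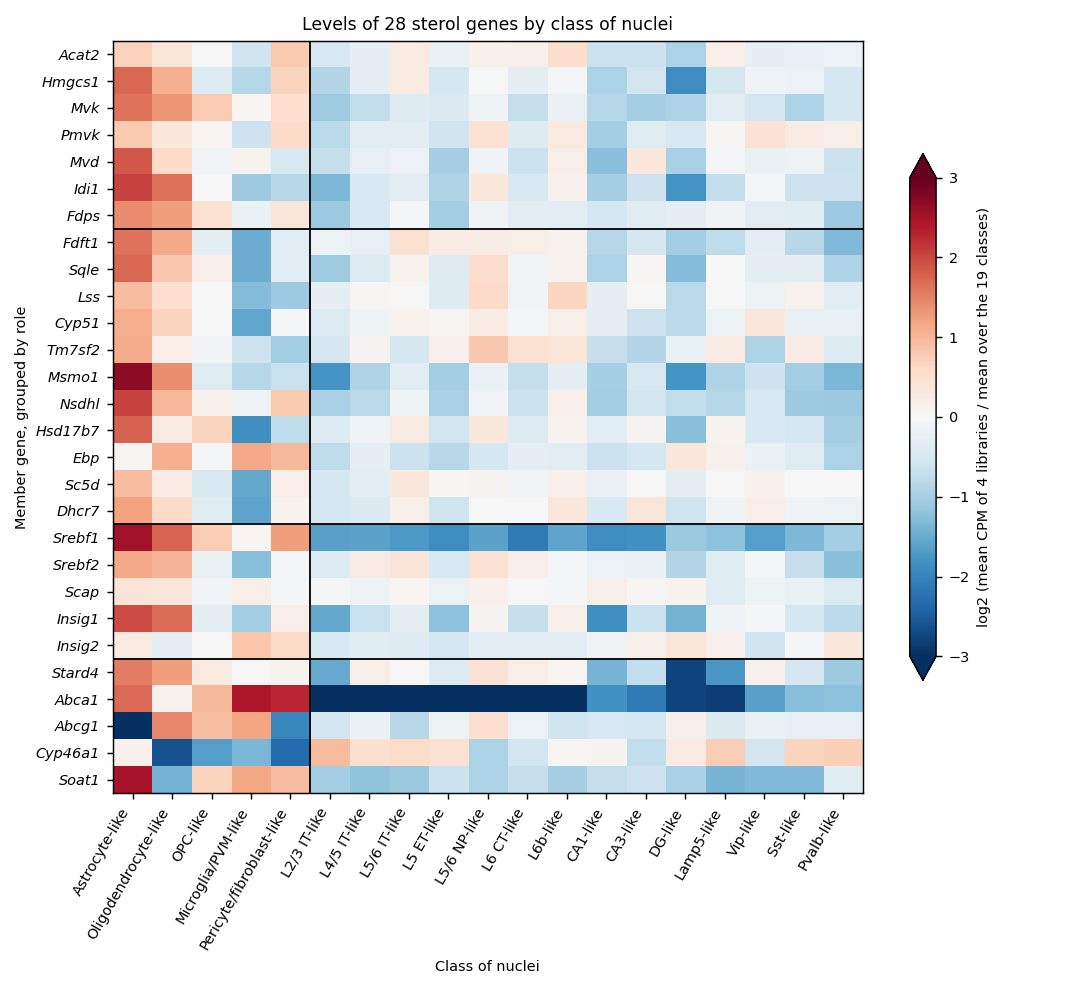
Mean level of each of the 28 genes (rows, grouped by role) in each of 19 classes (columns), shown as the log2 of its level over its own mean across the classes, so that colours compare classes within a gene and not genes with each other. The astrocyte-like column is the highest for 22 genes, with Abca1, Abcg1, Cyp46a1, Insig2, Ebp and Acat2 as the exceptions.

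The enzymes tended to be high and low in the same classes. Over the 19 classes the median Spearman correlation among the 153 pairs of synthesis enzymes was 0.60, and 96.7% of the pairs were above 0. Over the 14 neuron-like classes alone the median was 0.54, with 96.1% above 0. The classes share the same 4 libraries, and all levels of a class share its total, so these values describe the 4 libraries and carry no test. Among the control genes, Insig1 was the nearest to the enzymes, with a median correlation to them of 0.76 over the 19 classes and 0.72 over the neuron-like ones, followed by Srebf2 (0.64 and 0.56). Insig2 (-0.11), Abca1 (0.04), Abcg1 (-0.09), Soat1 (-0.09) and Cyp46a1 (-0.32) did not follow the enzymes over the 19 classes.

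The promoters of 4 of the genes are shown for the letters that factors of this pathway are known to read, as 250 bases before the RefSeq start site and 50 bases from it (GRCm38.p6), in the direction of the gene. Capitals in Hmgcs1 mark the sterol regulatory element core TCACCCCAC and CCAAT (as ATTGG where it lies on the other strand). In Mvd they mark CCAAT and the GC box GGGCGG, in Insig1 the E-box CACGTG and CCAAT, and in Abca1 the E-box. Not every match is marked, and GGGCGG also lies in the windows of Hmgcs1, Insig1 and Abca1, where it is left in lower case. Hmgcs1 (chr13:119690101-119690400, plus strand) is shown because it opens the pathway, Insig1 (chr5:28071162-28071461, plus strand) because it followed the enzymes most closely, and Mvd (chr8:122443373-122443672, minus strand) and Abca1 (chr4:53159846-53160145, minus strand) because they were called in the genotype comparison.
Hmgcs1: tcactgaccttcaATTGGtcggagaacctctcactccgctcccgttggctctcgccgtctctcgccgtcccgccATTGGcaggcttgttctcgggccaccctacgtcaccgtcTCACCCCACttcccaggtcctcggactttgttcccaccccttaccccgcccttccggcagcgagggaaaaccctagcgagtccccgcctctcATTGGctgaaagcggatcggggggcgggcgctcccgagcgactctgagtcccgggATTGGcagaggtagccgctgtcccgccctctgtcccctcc
Mvd: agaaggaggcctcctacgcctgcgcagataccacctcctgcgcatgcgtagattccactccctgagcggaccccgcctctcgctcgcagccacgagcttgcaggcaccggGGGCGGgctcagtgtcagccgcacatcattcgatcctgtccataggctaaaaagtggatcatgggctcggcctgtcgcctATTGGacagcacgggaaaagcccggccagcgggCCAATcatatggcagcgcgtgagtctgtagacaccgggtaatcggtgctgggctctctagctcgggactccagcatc
Insig1: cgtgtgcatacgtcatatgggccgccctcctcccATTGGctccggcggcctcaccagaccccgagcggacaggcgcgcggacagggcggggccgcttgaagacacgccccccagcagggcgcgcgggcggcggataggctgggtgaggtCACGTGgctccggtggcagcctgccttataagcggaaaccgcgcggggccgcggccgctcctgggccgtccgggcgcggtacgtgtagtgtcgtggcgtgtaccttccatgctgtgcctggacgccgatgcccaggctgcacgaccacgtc
Abca1: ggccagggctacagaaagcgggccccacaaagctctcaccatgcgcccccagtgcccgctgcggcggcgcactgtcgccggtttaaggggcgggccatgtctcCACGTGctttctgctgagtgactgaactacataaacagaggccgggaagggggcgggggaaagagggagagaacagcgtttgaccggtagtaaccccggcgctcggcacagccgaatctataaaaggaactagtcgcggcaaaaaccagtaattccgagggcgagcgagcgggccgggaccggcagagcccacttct

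Of the 28 genes, 23 had such a window, with 31 windows between them, and both strands were searched. A gene counts as a match if any of its windows holds the letters, while the shares of all windows are per window. TCACCCCAC was found in Hmgcs1 only, 137 bases before the start site, and in 0.551% of all 32851 windows. With an A before it, the same core was in no window of the 23 genes and in 0.0913% of all. CACGTG was found in 6 genes (Abca1, Dhcr7, Hsd17b7, Insig1, Sc5d and Scap), or 7 of the 31 windows, and in 7.15% of all windows. It lay 147 bases before the start of Abca1 and 101 bases before that of Insig1. CCAAT was found in 20 of the 23 genes, or 21 of the 31 windows, and in 37.4% of all windows. GGGCGG was found in 22 of the 23 genes, or 26 of the 31 windows, and in 35.7% of all windows. The direct repeat of GGTCA with a spacer of 4 bases, a form read by nuclear receptors of the LXR kind, was in none of the 23 genes and in 0.0457% of all windows. Only these exact letters were searched and no variants of the repeat, so the search cannot show that a promoter, that of Abca1 included, lacks such a site. The longer form of the sterol regulatory element contains the shorter, and a match is not evidence of binding.

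Among the control genes, Srebf1 had the steepest fall from glia to neurons. It stood at 34.0, 54.9, 38.2 and 52.6 CPM in astrocyte-like nuclei, averaged 26.3 CPM in oligodendrocyte-like and 13 CPM in OPC (oligodendrocyte precursor)-like nuclei, and 1.79 to 3.81 CPM in the neuron-like classes. Srebf2 differed less, with 137, 141, 137 and 128 CPM in astrocyte-like, a mean of 126 CPM in oligodendrocyte-like, and 26.0 (Pvalb-like) to 84.5 CPM (L5/6 NP-like) in neuron-like nuclei. Scap was nearly level, with an astrocyte-like mean of 40.2 CPM and neuron-like means of 23.1 to 34.5 CPM. Insig1 averaged 68.4 CPM in astrocyte-like, 56.3 CPM in oligodendrocyte-like and 4.94 to 20 CPM in neuron-like nuclei. Insig2 had another order, highest in microglia-like nuclei (69.2, 64.5, 62.2 and 66.8 CPM), whose values overlapped the pericyte-like ones (mean 55.1 CPM). Among neurons it was highest in DG-like nuclei (44.1, 50.7, 50.5 and 44.7 CPM). The DG-like class, lowest for 10 of the genes, was thus the highest neuronal class for Insig2.

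The genes of export, storage and turnover each had a different leading class. Abca1, which hands cholesterol and phospholipid to lipid-poor apolipoproteins, averaged 367 CPM in microglia-like, 338 CPM in pericyte-like and 225 CPM in astrocyte-like nuclei, against 2.44 to 29.3 CPM in neuron-like classes. The microglia-like and pericyte-like values overlapped. Abcg1, which passes cholesterol to lipidated particles, was highest in oligodendrocyte-like nuclei (98.4, 104, 132 and 129 CPM) and averaged 94.6 CPM in microglia-like and 77.6 CPM in OPC-like nuclei. Its oligodendrocyte-like and microglia-like values overlapped. In astrocyte-like nuclei, where most of the other genes were highest, Abcg1 came to only 5.44, 2.68, 2.41 and 5.26 CPM from 8, 2, 6 and 5 UMIs, below the neuron-like means of 23.4 to 58.9 CPM. Soat1, which esterifies cholesterol for storage, stood at 175, 183, 172 and 185 CPM in astrocyte-like nuclei. The next class, microglia-like, had 69.2, 71.3, 81.1 and 66.8 CPM, and oligodendrocyte-like nuclei averaged 12.1 CPM.

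Cyp46a1, the cholesterol 24-hydroxylase, was the one gene of the 28 whose leading class was neuronal. It was highest in layer 2/3 intratelencephalic (L2/3 IT)-like nuclei, at 55.3, 59.2, 46.2 and 50.9 CPM, and lowest among neurons in L5/6 NP-like nuclei, at 18.2, 13, 13.7 and 11.6 CPM. The next class, Lamp5-like, averaged 45.4 CPM, and its values overlapped those of L2/3 IT-like nuclei. Astrocyte-like nuclei had a mean of 30.0 CPM and oligodendrocyte-like nuclei 4.44 CPM. The L5/6 NP-like class was thus the highest neuronal class for 10 of the genes and the lowest for Cyp46a1. Stard4, a soluble carrier of sterols between membranes, averaged 17.6 CPM in astrocyte-like nuclei and from 0.895 CPM in DG-like (5, 1, 1 and 8 UMIs) to 8.25 CPM in L5/6 NP-like nuclei.

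The genotype comparison asked whether any of these genes differed between the Sel1L SynCre and Sel1L fl/fl libraries within a class. Few did. UMIs of a class were summed per library and tested with edgeR, with a Benjamini-Hochberg adjustment over every gene tested in the class. Of 532 pairs of a gene and a class, 461 passed the filter on low counts and were tested. In 4 pairs the gene was called higher in Sel1L SynCre (adjusted p below 0.05) and in 0 pairs lower, or 0.868% of the pairs, against 1.45% of all 224046 pairs of a gene and a class tested. At an unadjusted p below 0.05, 26 pairs were higher and 6 lower, or 6.94%, against 11.6% of all pairs. In 16 of the 19 classes no gene of the 28 was called, while 14 pairs were higher and 6 lower at an unadjusted p below 0.05 in those classes, and DESeq2 called 0 there. DESeq2 called 1 pair in all, Abca1 in Sst-like nuclei. Among the classes without a called member, OPC-like nuclei had 2% of all genes called higher and 1.4% lower, and L4/5 IT-like nuclei 1.18% and 0.611%. Standard errors had a median of 0.28 on the log2 scale, so that differences under a doubling would often not be seen with 2 mice per group. Some above a doubling were not called either, such as Idi1 in CA1-like nuclei, with a log2 fold change of 1.18. A gene without a call is therefore not shown to be unchanged.

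**Figure D3:**
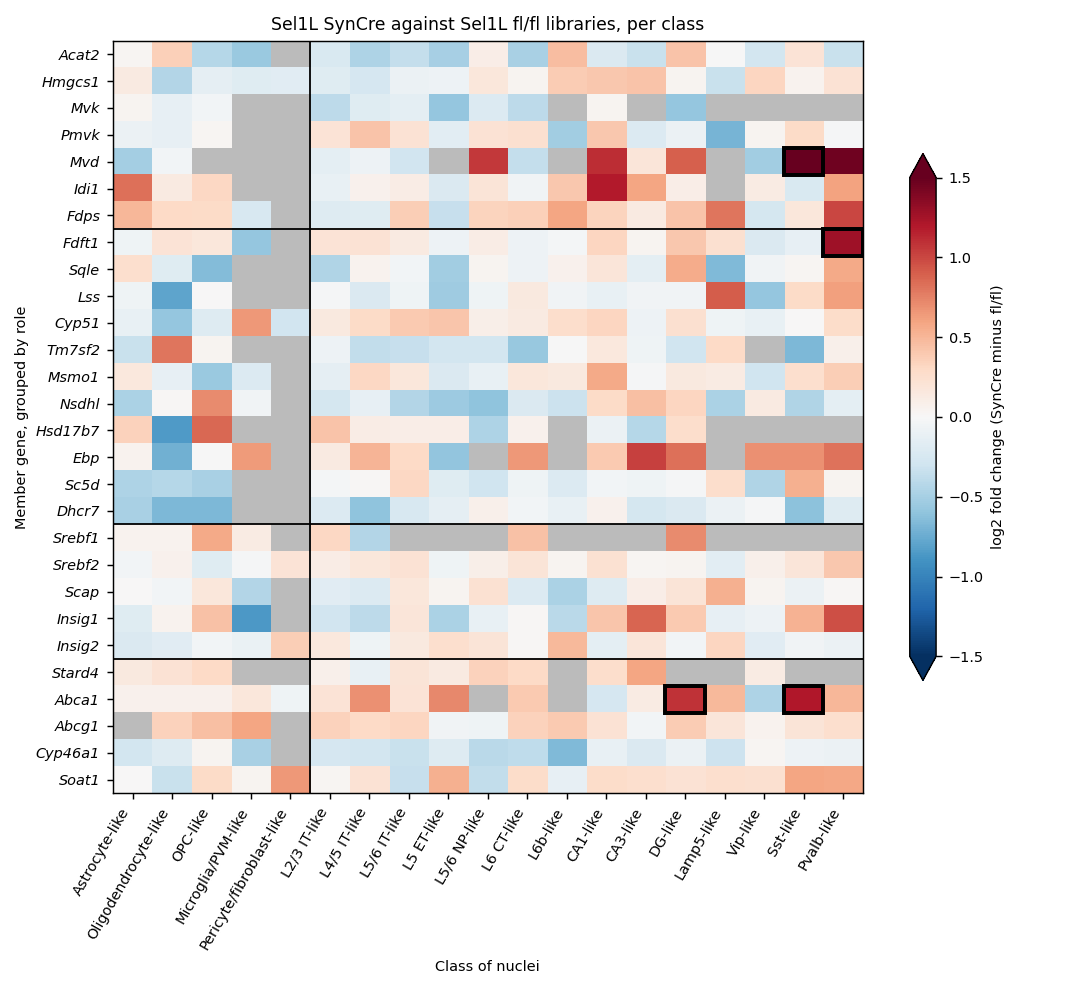
Log2 fold change of each of the 28 genes (rows, grouped by role) in each of 19 classes (columns), Sel1L SynCre minus Sel1L fl/fl, from edgeR, with the 4 called pairs framed and untested pairs in grey. The framed pairs are Abca1 in Sst-like and DG-like, Fdft1 in Pvalb-like and Mvd in Sst-like nuclei, all higher in Sel1L SynCre.

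Abca1 rose in Sst-like interneurons, which carry the neuropeptide somatostatin. Here and in the fold changes that follow, CPM are scaled by TMM factors. Abca1 (ENSMUSG00000015243, chr4:53030787-53159895, minus strand, GRCm38) had 55, 25, 76 and 63 UMIs in the 4 libraries, or 20.1 and 13.5 CPM in Sel1L fl/fl and 40.6 and 38.7 CPM in Sel1L SynCre. Both Sel1L SynCre values lay above both Sel1L fl/fl values. The log2 fold change was 1.2 ± 0.24 (SE, n = 2 and 2 libraries), a 2.29-fold difference, with an adjusted p of 0.00131 in edgeR. In this class 5.02% of 11826 genes were called higher and 4.19% lower. The call stood in 14 of the 15 alternatives that were run, with log2 fold changes of 0.96 to 1.55 over all 15. The exception was thinning of every neuronal sum to the smallest one (1.16, adjusted p = 0.0569 in edgeR). The change of prior count, which is among the 15, alters the fold change only and could not end the call. Without Sel1L fl/fl replicate 1 the value was 1.55 (adjusted p = 7.75e-05 in edgeR).

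In DG-like granule neurons Abca1 rose as well, from a lower level. It had 41, 29, 51 and 47 UMIs, or 6.09 and 6.71 CPM against 13.4 and 13.6 CPM, and the groups did not overlap. The log2 fold change was 1.08 ± 0.25 (SE, n = 2 and 2), with an adjusted p of 0.0306 in edgeR. In this class 1.97% of 13059 genes were called higher and 1.72% lower. The fold change was 1.01 without Sel1L fl/fl replicate 1, where the call was lost (adjusted p = 0.128 in edgeR), and DESeq2 gave an adjusted p of 0.226. Leaving out any of the other 3 libraries also ended the call, with adjusted p of 0.051 to 0.0583 in edgeR and fold changes of 1.07 to 1.14. It was 0.81 (adjusted p = 0.175 in edgeR) when nuclei with any UMI of an oligodendrocyte marker were left out.

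Microglia-like, pericyte-like, astrocyte-like and OPC-like nuclei held far more Abca1 than neurons, so the markers of other classes are given beside these results, as unscaled CPM. In Sst-like nuclei the 9 microglial markers summed to 49.6, 80.1, 73.9 and 63.6 CPM, with 2 of the 9 at 0, and the 7 astrocyte markers to 88.5, 78.0, 115 and 81.2 CPM. In DG-like nuclei they summed to 83.6, 108, 114 and 88.8 CPM and to 1186, 1158, 892 and 901 CPM. In neither class did the 2 Sel1L SynCre sums both lie above the 2 Sel1L fl/fl sums. Marker by marker, 3 of the 7 astrocyte markers were higher in both Sel1L SynCre libraries and 1 lower in Sst-like nuclei, and 4 were higher and 2 lower in DG-like nuclei. Of the 9 microglial markers, 2 were higher and 0 lower in Sst-like nuclei, and 1 was higher and 1 lower in DG-like nuclei. The 8 pericyte or vascular fibroblast markers summed to 1.38, 4.24, 7.55 and 2.52 CPM in Sst-like and to 4.74, 3.87, 5.29 and 2.96 CPM in DG-like nuclei. The 7 OPC markers summed to 1198, 1069, 1083 and 1117 CPM and to 37.2, 35.7, 24.9 and 21.6 CPM. In Sst-like nuclei the 4 choroid plexus markers (33.4, 17 against 68.0, 49.1 CPM) and the 7 immature oligodendrocyte markers (147, 150 against 197, 165 CPM) summed higher in both Sel1L SynCre libraries. In DG-like nuclei the same held for the immature oligodendrocyte markers (176, 178 against 180, 182 CPM) and the 6 endothelial markers (4.74, 4.78 against 9, 7.40 CPM), while the choroid plexus sums overlapped (56.2, 35.0 against 84.4, 55.1 CPM). The part of these other cells in the Abca1 values was not tested. The 7 oligodendrocyte markers summed to 58.9, 40.8, 24.8 and 13.2 CPM in Sst-like nuclei, with 4 of the 7 lower in both Sel1L SynCre libraries, and to 272, 252, 176 and 176 CPM in DG-like nuclei, with 6 of 7 lower. One of the 7, St18, was also among the 10 leading genes of the DG-like nuclei. Oligodendrocyte-like nuclei averaged 74.4 CPM of Abca1, and whether RNA from them moved the neuronal values was not tested beyond leaving out nuclei with their UMIs, which gave 0.98 (adjusted p = 0.0154 in edgeR) in Sst-like nuclei.

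**Figure D4:**
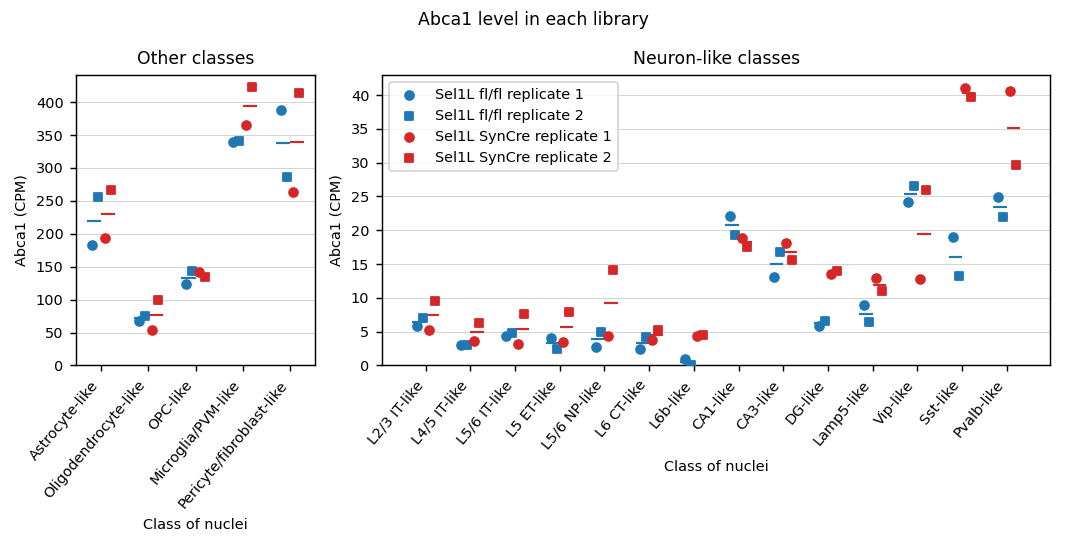
Abca1 level (CPM, vertical axes) in each library by class (horizontal axes), with the 5 other classes in the left panel and the 14 neuron-like classes in the right panel on its own scale. In Sst-like and DG-like nuclei both Sel1L SynCre points lie above both Sel1L fl/fl points, while in CA1-like nuclei (17.5 to 22.1 CPM) the Sel1L fl/fl points lie slightly above. Short lines mark the group means.

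The Abca1 difference was not shared by CA1-like pyramidal neurons, the class in which the study describes SEL1L as largely kept. The study also shows images of the CA1 region of Sel1L SynCre mice with the stress factor ATF4 in nuclei, together with a raised signal of the ER marker KDEL. CA1 is thus not described as wholly unaffected. Unscaled CPM in CA1-like nuclei were 22.1, 19.3, 18.9 and 17.5, with the Sel1L fl/fl values slightly above the Sel1L SynCre values. The log2 fold change was -0.25 ± 0.19 (SE, adjusted p = 0.751 in edgeR). The difference between the genotype effects was tested in edgeR with the library as a block. The log2 fold change of Abca1 was larger by 1.45 ± 0.27 (SE) in Sst-like than in CA1-like nuclei (adjusted p = 0.00245) and larger by 1.36 ± 0.29 in DG-like than in CA1-like nuclei (adjusted p = 0.00677). These contrasts called 3.27% and 2.42% of all genes. Without Sel1L fl/fl replicate 1 they were 1.67 (adjusted p = 0.00224 in edgeR) and 1.14 (adjusted p = 0.151 in edgeR). DESeq2 called neither, with adjusted p of 0.303 and 0.814. Sst-like and DG-like nuclei were each compared with the same CA1-like libraries. No other gene of the 28 was called in any of the 6 contrasts between classes, in which 16 further pairs of a gene and a contrast had an unadjusted p below 0.05 in edgeR and DESeq2 called 0. Abca1 itself was among these pairs. It was larger than in CA1-like nuclei by 0.75 ± 0.25 (SE) in Pvalb-like and 0.96 ± 0.35 in L4/5 IT-like nuclei (adjusted p = 0.14 and 0.387 in edgeR). In L2/3 IT-like nuclei the value was 0.46 ± 0.29 (adjusted p = 0.716 in edgeR). Abca1 thus leaned the same way against CA1-like nuclei in every neuron-like class compared, and was called in Sst-like and DG-like nuclei only. The remaining 4 contrasts called 2.72% (Pvalb-like against CA1-like), 0.323% (L4/5 IT-like against CA1-like), 0.16% (L2/3 IT-like against CA1-like) and 0.687% (oligodendrocyte-like against astrocyte-like) of all genes.

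Over the 12 neuron-like classes in which Abca1 was tested, Sst-like, DG-like and CA1-like nuclei included, it had log2 fold changes of -0.47 to 1.2, with a median of 0.44, and 10 of 12 above 0. In CA3-like nuclei, from a region where the study describes SEL1L as almost fully lost, Abca1 was tested and not called. Its unadjusted p in edgeR there was not below 0.05. Whether the Abca1 difference goes with the loss of SEL1L was not tested. In Pvalb-like interneurons Abca1 had 26.2 and 22.3 CPM against 39.9 and 29.2 CPM, a log2 fold change of 0.50 ± 0.22 (SE) with an adjusted p of 0.264 in edgeR. It was the highest neuronal class for Abca1. In the non-neuronal classes, where the level is highest, no call was made, and microglia-like nuclei had 353, 352, 372 and 422 CPM. All of these classes come from the same 4 mice and are not replicates of each other.

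In Pvalb-like interneurons, the fast-spiking parvalbumin cells, the squalene synthase gene Fdft1 rose. Fdft1 (ENSMUSG00000021273, chr14:63145150-63179578, minus strand, GRCm38) joins 2 farnesyl units and commits the pathway to sterols. It had 23, 19, 36 and 51 UMIs, or 6.78 and 7.99 CPM in Sel1L fl/fl and 15.3 and 20.1 CPM in Sel1L SynCre, and the groups did not overlap. The log2 fold change was 1.28 ± 0.30 (SE, n = 2 and 2), or 2.42-fold, with an adjusted p of 0.0298 in edgeR. In this class 2.26% of 12273 genes were called higher and 1.96% lower. Pvalb-like nuclei were the neuron-like class with the lowest Fdft1 level, with a mean of 12.6 unscaled CPM against 43.0 in L5/6 IT-like nuclei. Without Sel1L fl/fl replicate 1 the log2 fold change was 1.15 (adjusted p = 0.18 in edgeR), and DESeq2 gave an adjusted p of 0.211. The call was lost too without Sel1L SynCre replicate 2 (1.06, adjusted p = 0.117 in edgeR) and without nuclei holding an oligodendrocyte UMI (1.19, adjusted p = 0.0799 in edgeR). Fdft1 overlaps Ctsb over 774 bases on the opposite strand, and whether the counting used the strand is not stated in the sources used here.

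No other gene of the 28 was called in Pvalb-like nuclei. Of the 24 tested, Fdft1 included, 18 had a log2 fold change above 0 and 6 below, and their median was 0.32, against 0.01 over all genes tested in the class. Mvd, the decarboxylase that ends the mevalonate steps, had 1.77 and 2.10 CPM against 5.10 and 5.52 CPM (adjusted p = 0.138 in edgeR). Fdps, which makes farnesyl diphosphate, had 5.60 and 4.62 CPM against 10.2 and 10.6 CPM (adjusted p = 0.149 in edgeR). Insig1 had 5.60 and 8.41 CPM against 9.77 and 17 CPM (adjusted p = 0.183 in edgeR). In each of the 3 the groups did not overlap, at 5 to 43 UMIs per library. They were picked by an unadjusted p below 0.05, which favours such separation, and its share over all genes is not given. Insig1 passed the threshold without Sel1L SynCre replicate 1 (1.31, adjusted p = 0.0381 in edgeR). Soat1, at 23.9 and 16.0 CPM against 33.1 and 27.6 CPM, was the remaining gene with an unadjusted p below 0.05 besides Abca1 (adjusted p = 0.224 in edgeR). Of all genes in this class 17% had an unadjusted p below 0.05, against 6 of these 24. Unscaled, the summed enzymes came to 175 and 192 CPM in Sel1L fl/fl and 213 and 257 CPM in Sel1L SynCre. Oligodendrocyte markers summed to 42.1, 33.1, 32.8 and 19.2 CPM, and astrocyte markers to 377, 406, 311 and 314 CPM. Among the lists of other cell types, the sums that were higher in both Sel1L SynCre libraries were those of immature oligodendrocytes (171, 154, 220 and 215 CPM), choroid plexus (24.7, 19, 62.5 and 27.3 CPM), microglia (53.3, 78.3, 84.1 and 81.8 CPM) and endothelial cells (2.52, 4.56, 5.61 and 6.01 CPM). The part of these other cells in the Pvalb-like values was not tested.

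**Figure D5:**
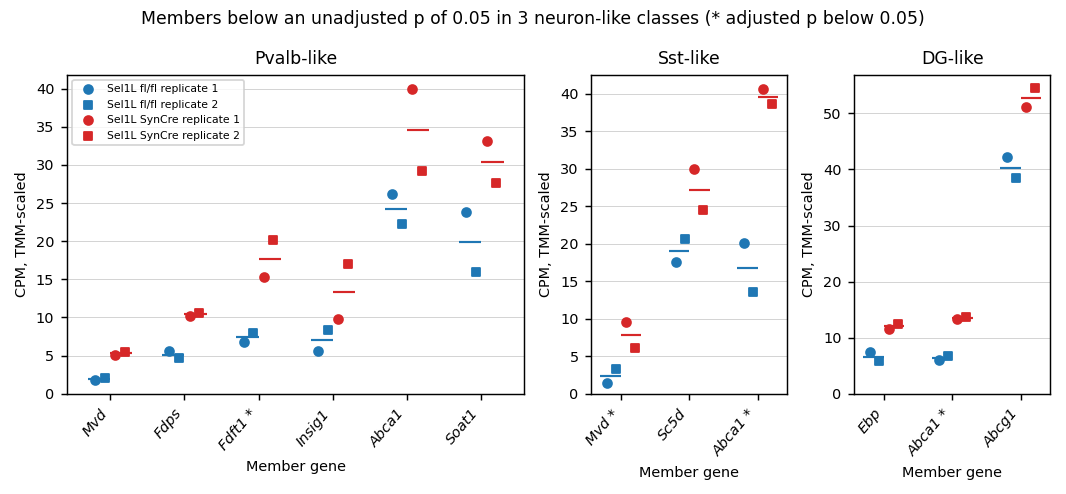
TMM-scaled CPM (vertical axes) in each library of the genes with an unadjusted p below 0.05 (horizontal axes) in Sst-like, Pvalb-like and DG-like nuclei, with lines at the group means and an asterisk for an adjusted p below 0.05. The starred genes are Abca1 and Mvd in Sst-like, Fdft1 in Pvalb-like and Abca1 in DG-like nuclei, and every gene drawn has both Sel1L SynCre points above both Sel1L fl/fl points. Choosing genes by p favours such separation.

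Mvd also rose in Sst-like nuclei, at the edge of what the depth allows. Mvd (ENSMUSG00000006517, chr8:122433601-122443422, minus strand, GRCm38) had 4, 6, 18 and 10 UMIs, or 1.46 and 3.25 CPM against 9.62 and 6.14 CPM, without overlap. The log2 fold change was 1.83 ± 0.55 (SE, n = 2 and 2), with an adjusted p of 0.0353 in edgeR, and with a prior count of 2 in place of the default it was 1.49. Leaving out any 1 library ended the call, with adjusted p of 0.0684 to 0.513 in edgeR, and without Sel1L fl/fl replicate 1 it was 1.27 (adjusted p = 0.398 in edgeR). With the replicate number as a block the adjusted p was 0.0976 in edgeR. Beside Mvd and Abca1, only Sc5d had an unadjusted p below 0.05 among the 24 genes tested in Sst-like nuclei, at 17.5 and 20.6 CPM against 29.9 and 24.5 CPM (adjusted p = 0.203 in edgeR). Of all genes in this class 21.9% had an unadjusted p below 0.05. Over the genes tested without Sel1L fl/fl replicate 1 the median log2 fold change was 0.06. With all libraries the median of the 24 was 0.17, against 0.01 over all genes. Tm7sf2 and Dhcr7, which reduce double bonds of the sterol late in the pathway, had the lowest values, -0.67 ± 0.39 and -0.62 ± 0.34 (SE).

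In DG-like nuclei 19 of 27 genes had a log2 fold change above 0 and 8 below, with a median of 0.22 against 0.01 over all genes. Ebp had 7.43 and 5.78 CPM against 11.5 and 12.5 CPM (adjusted p = 0.112 in edgeR), in the neuronal class where its level is highest. Abcg1, the partner of Abca1 in export, had 42.2 and 38.4 CPM against 51.1 and 54.5 CPM, a log2 fold change of 0.38 ± 0.13 (SE) with an adjusted p of 0.143 in edgeR. Neither gene was called. Their groups did not overlap, which is favoured by picking them at an unadjusted p below 0.05. Of all genes in this class 16.5% had such a p. Unscaled, the summed enzymes came to 151 and 156 CPM against 179 and 188 CPM. DG-like, Pvalb-like and CA1-like nuclei were the 3 classes of the 19 in which both Sel1L SynCre sums lay above both Sel1L fl/fl sums, and in 0 classes did both lie below. Hmgcs1, at the head of the mevalonate pathway, showed no such distance, with 7.57 and 10.2 CPM against 8.92 and 8.99 CPM. Sel1L fl/fl replicate 1 had the lowest enzyme sum of the libraries in 13 of the 14 neuron-like classes. Without it the median log2 fold change of the genes tested was 0.10 in DG-like, 0.07 in CA1-like and 0.27 in Pvalb-like nuclei. With all libraries these medians were 0.22, 0.23 and 0.32. Other neuron-like classes leaned the other way. In L5 ET-like nuclei 7 of 26 genes were above 0 and 19 below, with a median of -0.17. In L2/3 IT-like nuclei 12 of 28 were above and 16 below, with a median of -0.06. For 2 against 2 libraries, 1 of 6 arrangements puts both Sel1L SynCre sums above. The classes also share their libraries, so the 3 classes named carry no test.

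In CA1-like nuclei, where none of the genes was called, Idi1, which turns isopentenyl into dimethylallyl diphosphate, had 3.45 and 4.01 CPM against 11.1 and 5.89 CPM. Its log2 fold change was 1.18 ± 0.38 (SE) with an adjusted p of 0.445 in edgeR. In this class 0.0156% of all genes were called higher and 0% lower. Msmo1 had 11.7 and 17.8 CPM against 25.6 and 17.4 CPM, and these overlapped. It passed the threshold without Sel1L fl/fl replicate 2 (0.87, adjusted p = 0.0258 in edgeR). Astrocyte-like nuclei, which are not a target of the Cre, had an Idi1 value of the same kind, with 39.7 and 32.9 CPM against 73.0 and 56.0 CPM. The log2 fold change there was 0.83 ± 0.23 (SE) with an adjusted p of 0.164 in edgeR, and it passed the threshold only with no filter on low counts (adjusted p = 0.049 in edgeR). The 27 genes tested in astrocyte-like nuclei had a median log2 fold change of 0.01, and the summed enzymes overlapped between the groups. In this class 0.6% of all genes were called higher and 0.179% lower.

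Oligodendrocyte-like nuclei, of which the Sel1L SynCre libraries held fewer, had no called gene. Cyp51, the lanosterol demethylase, had 69.1 and 69.6 CPM against 50.4 and 42.4 CPM, a log2 fold change of -0.58 ± 0.18 (SE) with an adjusted p of 0.223 in edgeR. Lss had 19.3 and 26.9 CPM against 14 and 12.2 CPM (adjusted p = 0.394 in edgeR). Both were lower in each Sel1L SynCre library. They were the 2 of the 28 genes with an unadjusted p below 0.05 in edgeR, and picking by p favours such separation. Of all 11467 genes tested in this class, 1243 had such a p. Of 28 genes 12 had a log2 fold change above 0 and 16 below, with a median of -0.08, against 0.003 over all genes tested in the class. By role the median was -0.43 from squalene to cholesterol, the lowest, with a median SE of 0.31. It was -0.04 in the mevalonate and isoprenoid steps, 0.05 in SREBP control and 0.07 in transport to turnover. With a library left out the median of those of the 28 genes that were tested ranged from -0.35 (without Sel1L SynCre replicate 1) to 0.04 (without Sel1L SynCre replicate 2). In this class 0.706% of all genes were called higher and 0.148% lower.

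Some genes had the same sign in most neuron-like classes in which they were tested, without calls. The fold change of Ebp was above 0 in 10 of 11 classes, with a median of 0.65, that of Stard4 in 8 of 9 (0.19), and that of Mvk was below 0 in 7 of 8 (-0.30). The fold change of Cyp46a1 was below 0 in 13 of 14 classes, with a median of -0.23, and both Sel1L SynCre levels lay below both Sel1L fl/fl levels in 4 of them. In L6b-like nuclei it had 31.6 and 40.3 CPM against 22.2 and 22.8 CPM (log2 fold change -0.66 ± 0.30 (SE), adjusted p = 0.509 in edgeR). Dhcr7, the last reductase of the pathway, was below 0 in 12 of 14, with a median of -0.16. Srebf2 was above 0 in 12 of 14 with a median of 0.10, and Abcg1 in 11 of 14 with a median of 0.23. For Abcg1 both Sel1L SynCre levels lay above both Sel1L fl/fl levels in 8 neuron-like classes, with the lowest adjusted p in DG-like nuclei. Abcg1 also had 61.5 and 72.6 CPM against 101 and 81.0 CPM in OPC-like nuclei and 71.2 and 81.8 CPM against 86.0 and 146 CPM in microglia-like nuclei (adjusted p = 0.284 and 0.566 in edgeR). The 14 classes share their libraries, so the counts of classes carry no test. The genes named here were among those with the most one-sided counts. No such counts over all genes are given for comparison, so whether these stand out was not tested. With 2 against 2 libraries an exact permutation test cannot go below 0.333, even where levels do not overlap.

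The remaining lists of the pathway are read against the 1.45% of all pairs of a gene and a class that were called. In a list of 7 LXR and RXR receptors and targets, 0 of 100 tested pairs of a gene and a class were called. That list leaves out Abca1, Abcg1 and Srebf1, which were counted among the main genes above. There Abca1 was called in Sst-like and DG-like nuclei, so the list does not show that no LXR target differed. The proteases and ligases that act on SREBP and on sterol-controlled degradation gave 0 of 160. Other sterol enzymes and binding proteins gave 0 of 70 as well. In the isoprenoid branch 1 of 167 pairs was called, Nus1, a subunit of the enzyme that makes dolichol, which carries sugars for glycosylation in the ER. Its level in Sst-like nuclei was 22.3 and 24.9 CPM against 37.9 and 39.9 CPM (log2 fold change 0.73 ± 0.21 (SE), adjusted p = 0.0313 in edgeR). The value was 0.64 and not called without Sel1L fl/fl replicate 1 (adjusted p = 0.18 in edgeR). In fatty acid synthesis 1 of 216 pairs was called, the elongase gene Elovl5 in Pvalb-like nuclei, at 24.2 and 21.4 CPM against 47.6 and 35.1 CPM (log2 fold change 0.85 ± 0.21 (SE), adjusted p = 0.042 in edgeR), and 0.94 without Sel1L fl/fl replicate 1 (adjusted p = 0.0871 in edgeR).

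In sterol transport 4 of 177 tested pairs were called higher and 1 lower, against 1.45% of all pairs in either direction. All 4 called higher were Stard5, a sterol-binding protein of the START family to which Stard4 also belongs. In Sst-like nuclei Stard5 had 39.4 and 33.0 CPM against 268 and 182 CPM, a log2 fold change of 2.62 ± 0.18 (SE). It had 68.7 and 87.0 CPM against 371 and 205 CPM in Pvalb-like nuclei (1.89), 19.3 and 26.4 CPM against 88.1 and 80.2 CPM in Lamp5-like nuclei (1.91), and 31.7 and 26.1 CPM against 53.2 and 52.8 CPM in layer 6 corticothalamic (L6 CT)-like nuclei (0.87). The groups were apart in all 4 classes. When Sel1L fl/fl replicate 1 was left out the log2 fold changes were 2.77, 1.72, 1.67 and 1.02, and each was called, with adjusted p of at most 0.00162 in edgeR. Stard4 itself was not called in any class, with neuronal log2 fold changes of -0.11 to 0.59 in the 9 neuron-like classes where it was tested. The 1 pair called lower was Osbpl2, an oxysterol-binding protein relative, in L4/5 IT-like nuclei, at 79.1 and 66.2 CPM against 44.4 and 48.2 CPM (log2 fold change -0.65 ± 0.14 (SE), adjusted p = 0.0471 in edgeR), and without Sel1L fl/fl replicate 1 the call was lost (-0.51, adjusted p = 0.0696 in edgeR).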

How the data were processed

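Nuclear RNA of the cortex and hippocampus was counted with the 10x Genomics 3′ v3 kit after sorting of propidium iodide-stained nuclei, in 4 mice, 2 of each genotype, with 1 library each. The authors deposited raw UMI counts per feature and nucleus, made with Cell Ranger 6.1.0 on GRCm38 per the labels' processing notes, without normalization. Whether introns or both strands were counted is not given in the sources used here. These libraries held 74082610 to 122870443 UMIs.

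Nuclei with 600 genes or fewer, or over 5% mitochondrial UMIs, were left out (45 to 237 and 0 to 7 nuclei per library), as were 426 to 1246 Scrublet doublets per library, an expected 0.8% per 1000 nuclei. The libraries were integrated and clustered in Seurat 5.3.0 (2000 variable features without the 28 genes, 17 dimensions, resolution 0.8 for all nuclei and 0.4 for neurons). Clusters were named from fixed marker lists. In all, 668 nuclei and 4708 neuron-like nuclei stayed unnamed and were not used. UMI sums per class and library were tested in edgeR 4.0.16 (TMM, filterByExpr, quasi-likelihood F test, two-sided, default prior count), adjusted over all genes of the class, with a threshold of 0.05. Standard errors were taken from each fold change and F value. An exact permutation test of 2 against 2 libraries cannot go below 0.333. Sums held 48957 to 12149048 UMIs. The p-values set each difference against the variation between 2 mice per group, with the variation of each gene drawn toward that of the other genes. Scripts were tested on simulated data.

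The members and lists were chosen with earlier results of these data known. Any of the 28 genes could be named. Of the other lists those past the threshold were named, at most 5 per class, and besides these Sel1l, Cre and class markers. Alternatives were DESeq2 1.42.0, other scalings, filters, prior counts and classes, doublets kept, nuclei with oligodendrocyte UMIs left out, thinning of every sum to the smallest of its kind, a replicate block and each library left out. Those for the levels and the other lists were added after the data were seen. Promoter windows are from RefSeq (GRCm38.p6), gene positions from the GRCm38 annotation. Fdft1, Fdps, Sqle, Abcg1 and Stard4 had no window.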

Additional observations from a re-analysis of the deposited data

Results flagged for a closer look

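The genotype difference of Abca1, the sterol exporter, differed between classes of neurons. It was larger in DG-like than in CA1-like nuclei by 1.36 ± 0.29 on the log2 scale (SE, adjusted p = 0.00677 in edgeR, with the library as a block), and larger in Sst-like than in CA1-like nuclei by 1.45 ± 0.27 (adjusted p = 0.00245 in edgeR). These results were picked out because the difference itself passed the test, with both Sel1L SynCre libraries above both Sel1L fl/fl libraries in DG-like and Sst-like nuclei and slightly below them in CA1-like nuclei. Against Vip-like in place of CA1-like nuclei the values were 1.52 (adjusted p = 0.0519 in edgeR) and 1.69 (adjusted p = 0.00926 in edgeR). These larger values mean that the fold change of Abca1 was lower still in Vip-like nuclei. Only 2 of the 12 neuron-like classes tested were below 0, CA1-like nuclei among them, and the lowest value was -0.47. Both references thus lie at the low end of the classes, so the change of reference is no independent check. For the contrasts with CA1-like nuclei, DESeq2 called neither (adjusted p = 0.814 and 0.303). Without Sel1L fl/fl replicate 1, whose Cre UMIs go against its label, the DG-like value was 1.14 and not called (adjusted p = 0.151 in edgeR), and the Sst-like value was 1.67 (adjusted p = 0.00224 in edgeR). The same 4 mice supplied every class, and the causes were not tested.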

How the results depend on the processing

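Abca1 in Sst-like nuclei passed the threshold in 14 of its 15 alternatives, with log2 fold changes of 0.96 to 1.55, and missed it after thinning (adjusted p = 0.0569 in edgeR). The change of prior count, counted among the 15, cannot alter a p-value. The count of called genes among the 28 was 1 in Sst-like nuclei, against 2, with DESeq2, with at least 10 counts in every library, with the replicate block, with doublets kept, without nuclei holding oligodendrocyte UMIs and with each library left out (1 to 1), and 0 after thinning. In DG-like and in Pvalb-like nuclei it was 0, against 1, with DESeq2, with doublets kept, without those nuclei and after thinning. With a library left out it was 0 to 0 in DG-like and 0 to 2 in Pvalb-like nuclei (Insig1 beside Fdft1 without Sel1L SynCre replicate 1). Called genes numbered 1 in astrocyte-like nuclei with no filter (Idi1). With a library left out they numbered 0 to 1 in CA1-like (Msmo1), L6 CT-like (Acat2, lower) and oligodendrocyte-like nuclei (Dhcr7, lower) and 0 to 2 in L4/5 IT-like nuclei (Msmo1 and Fdft1, higher, without Sel1L fl/fl replicate 2). Between classes, the DG-like against CA1-like count was 0, against 1, with DESeq2, with Vip-like nuclei as the reference and, among the libraries left out (0 to 1), without Sel1L fl/fl replicate 1. The Sst-like against CA1-like count was 0 with DESeq2 and 1 to 2 with a library left out, and the L4/5 IT-like count 0 to 1. The Pvalb-like count was 1, against 0, with Vip-like nuclei as the reference (Fdft1). The genes lowest in DG-like nuclei numbered 6 to 10 with a library left out, against 10. No direction reversed in 465 fold changes and 59 interaction results computed under the alternatives, the latter partly counts of calls. The fold changes cover only pairs with an unadjusted p below 0.05 in edgeR with all libraries, which favours a kept sign. The interaction values cover only genes called in the class. Among all members tested in astrocyte-like nuclei, 14 were above 0 and 13 below, against 7 and 20 without Sel1L fl/fl replicate 1. Nothing in the labels says that a replicate number marks a shared litter, batch or day, and there are only 2 pairs, so the numbers were not taken to pair the mice. Deviations of same-numbered libraries correlated at -0.04 to 0.24 across genes, above 0.1 in 16 of 19 classes. The replicate block moved the genes called higher and lower from 81 and 17 to 322 and 280 in oligodendrocyte-like and from 2 and 0 to 102 and 44 in CA1-like nuclei. With the replicate block Mvd in Sst-like nuclei lost its call (adjusted p = 0.0976 in edgeR) and no other called gene of the 28 did. Among the other lists Stard5 kept its calls in Sst-like, Pvalb-like and Lamp5-like nuclei in every alternative, and lost it in L6 CT-like nuclei without nuclei holding oligodendrocyte UMIs and after thinning (adjusted p = 0.0967 and 0.174 in edgeR). Nus1, Elovl5 and Osbpl2 lost theirs with DESeq2 (adjusted p = 0.398, 0.198 and 0.0547), after thinning and in 3 of the 4 fits that left out a library, and Nus1 also with the replicate block (adjusted p = 0.0654 in edgeR). With library totals alone, all genes in Sst-like nuclei split 690 higher and 303 lower, against 594 and 495. In DG-like nuclei the split was 273 and 128, against 257 and 225, and in Pvalb-like nuclei 317 and 184, against 277 and 241. The genes called were the same 4. Over all classes 4 pairs were called, against 1 with DESeq2, 1 with doublets kept, 1 without nuclei holding oligodendrocyte UMIs and 0 after thinning. The lone library of an arm was assumed to vary like the other arm. Sums of the smallest class held 48957 UMIs, where 6 of the 28 genes could be tested. Apart from construction (fewer genes or libraries), the causes of these changes were not tested.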

Other observations

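Immature oligodendrocyte-like nuclei were too few to test, with 107 and 62 nuclei in the Sel1L fl/fl and 5 and 6 in the Sel1L SynCre libraries. In the Sel1L fl/fl libraries the 18 synthesis enzymes summed to 1041 and 987 CPM in them, next to 975 and 963 CPM in astrocyte-like and 610 and 623 CPM in oligodendrocyte-like nuclei of the same libraries. The Sel1L SynCre sums, 226 and 510 CPM, rest on totals of 17698 and 25504 UMIs over all genes. In choroid plexus-like nuclei, of which there were 17, 1, 66 and 19, the sum was 272, 162, 404 and 404 CPM. In endothelial-like nuclei, of which there were 82, 14, 84 and 58, it was 279, 144, 316 and 287 CPM.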
